A study of Drosophila melanogaster with 16 samples.

Results

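The 9 genes of trehalose, sorbitol and sugar transport were followed in whole larvae of the fruit fly Drosophila melanogaster. They were chosen by symbol: Tps1, Treh, CG6084, Sodh-1, Sodh-2, Tret1-1, sut1, sut2 and Glut1. The rule used no measured value, but the choice was made with earlier results of these data known. All 9 had a row among the 9863 genes of the deposited table, and all 9 passed the filter on low values that left 9837 genes for testing. Larvae carried the allele cwoB9 of clockwork orange (cwo), the gene of a transcriptional repressor of the circadian clock, or came from a control line whose strain is not named. First-instar larvae fed on 10% yeast for 24 h at 25 °C and were then, as early second-instar larvae, given 8 h of either a high-sugar diet (10% yeast and 15% sucrose) or a low-sugar diet (10% yeast). The plates of those 8 h contained a blue food dye, and feeding larvae were collected. The 16 libraries form 4 groups of 4: mutant on high sugar, mutant on low sugar, control on high sugar and control on low sugar. The labels do not say how many larvae went into a sample or whether replicates were separate cultures, so the p-values measure the spread among these libraries only. The question, from the series title, is how cwo bears on the transcriptional response to sugar.

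Insects carry trehalose, a disaccharide of glucose, as the main sugar of the haemolymph. The fat body makes it through Tps1, a trehalose-6-phosphate synthase, and target tissues split it into glucose with the trehalase Treh. In the polyol pathway an aldose reductase such as CG6084 turns glucose into sorbitol, which the sorbitol dehydrogenases Sodh-1 and Sodh-2 oxidise to fructose, and in flies this pathway is known to take part in sugar sensing through Mondo. Trehalose and glucose cross membranes through facilitative transporters of the SLC2 family, to which Tret1-1, Glut1, sut1 and sut2 belong.

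The deposited values are called CPM, read counts scaled to library size, by the table's name and are given here under that name. Depth in the listed genes, recovered from the step between values, was 44948120 to 54194149 reads per library. The gene cwo had 286, 267, 291 and 272 CPM in larvae labelled mutant on high sugar and 139, 194, 192 and 199 CPM in those on low sugar. It had 64.0, 72.8, 71.2 and 67.6 CPM in control on high sugar and 56.9, 57.8, 54.9 and 58.3 CPM in control on low sugar. It was thus higher under the mutant label, and a value for the whole gene cannot check the allele, so every genotype direction below rests on the label "mutant". The sugar-induced regulator sug rose on high sugar in both genotypes (log2 differences of 2.62 ± 0.19, adjusted p = 3.46e-08 in mutant and 3.30 ± 0.19, adjusted p = 1.17e-09 in control). Of 6 fat body markers only Desat1 and Lsd-1 had rows. In the table were also 7 of 7 midgut, 6 of 6 glia, 6 of 6 neuron, 6 of 6 hemocyte and 5 of 6 Malpighian tubule markers, none of them at 0 on average in any group. The lowest was Uro, a tubule marker, at 0.356 CPM in mutant on high sugar. In each group the library that stood highest in the mean log2 value of 15 Tweedle genes, a cuticle family linked to moulting, was mutant high-sugar library 3 (5.72), mutant low-sugar library 4 (5.96), control high-sugar library 4 (5.72) and control low-sugar library 1 (5.26). Calls that change without these 4 libraries are named beside the result.

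Per length of annotated exon, CG6084 was the most abundant of the 9 genes in every group, at 560.5 ± 41.2 CPM per kb in mutant on high sugar, 467 ± 59.0 in mutant on low sugar, 613 ± 30.2 in control on high sugar and 492 ± 30.8 in control on low sugar. Glut1 and sut2 were the least abundant in every group, sut2 at 1.81 ± 0.0716, 1.499 ± 0.158, 2.37 ± 0.440 and 1.78 ± 0.189 CPM per kb in the same order of groups. The annotation gives Glut1 20 transcripts and 10933 exon bases, far more than any other of the 9 genes, so its level per kb depends on which of them are made. The middle of the order differed with diet. On high sugar Tps1 and Tret1-1 followed CG6084 in that order, at 135 ± 10.8 and 104 ± 4.15 CPM per kb in mutant and 116 ± 8.43 and 77.0 ± 6.98 CPM per kb in control. On low sugar Sodh-1 stood next to CG6084, at 135 ± 14.3 CPM per kb in mutant and 134 ± 10.1 CPM per kb in control. Several neighbours in the order could not be separated because their ranges overlapped. These were sut1 and Sodh-2 in mutant on high sugar and the run from Tps1 through Sodh-2 and sut1 to Tret1-1 in mutant on low sugar. They were also the pairs Tret1-1 with Sodh-1 and Sodh-2 with Treh in control on high sugar, and Sodh-2 with Tps1, Tps1 with sut1 and Tret1-1 with Treh in control on low sugar.

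**Figure D1:**
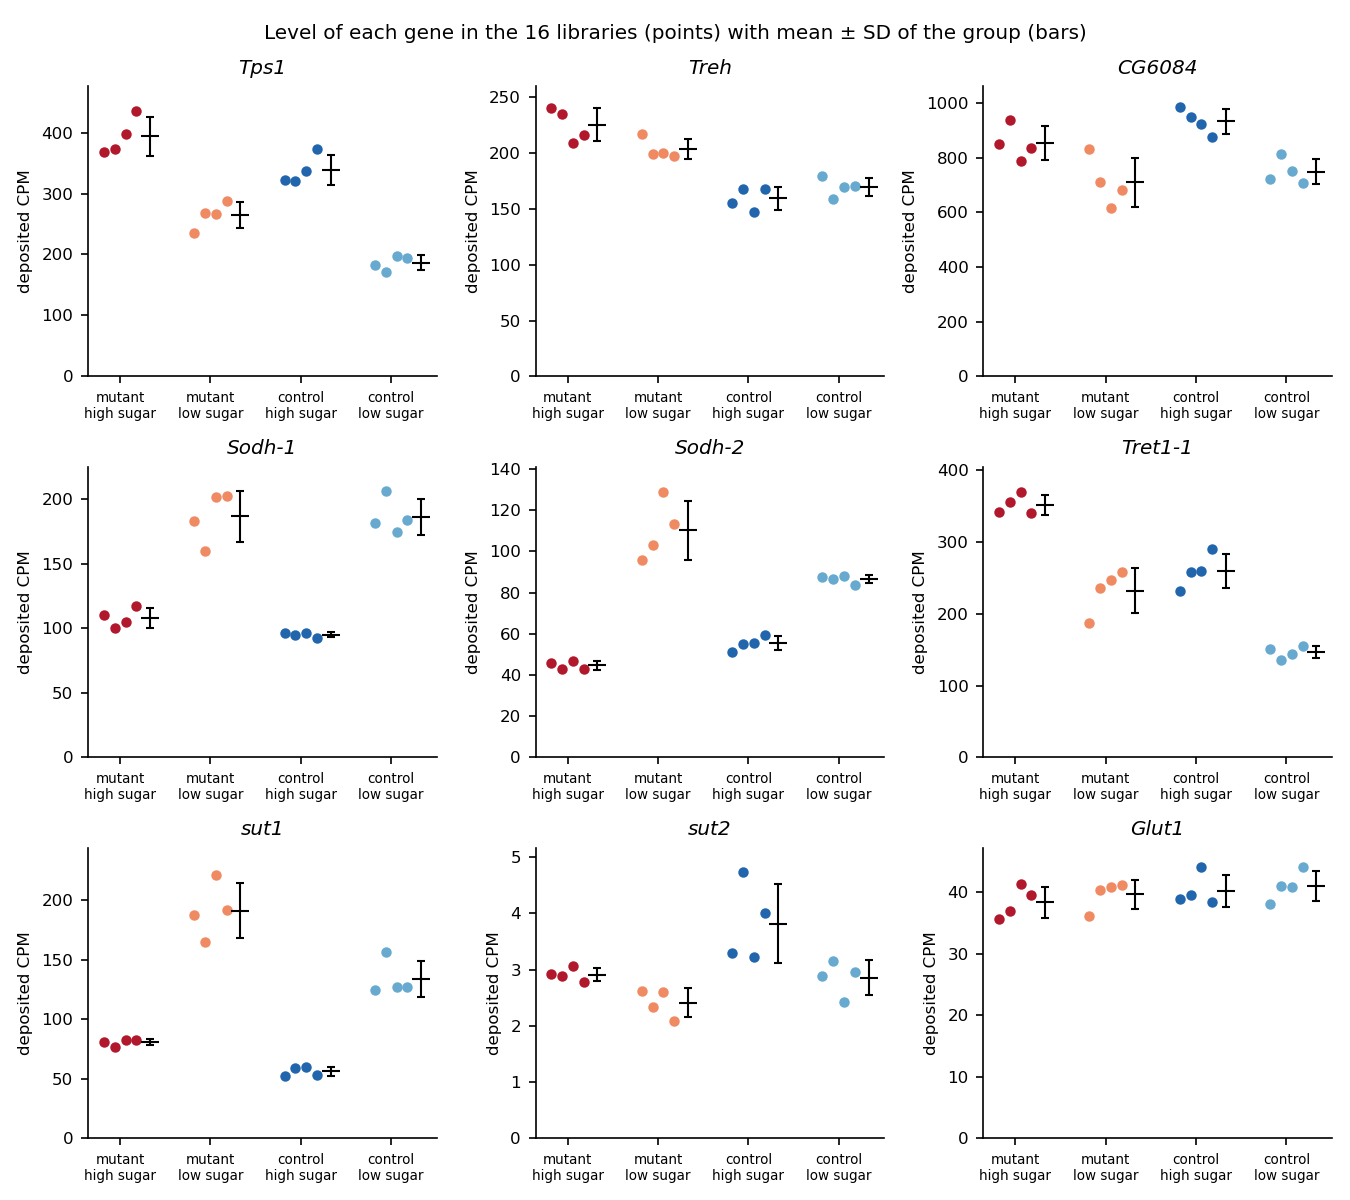
Deposited CPM of each of the 9 genes (vertical axis, from 0) in the 16 libraries, by group; points are libraries and bars are the group mean ± SD (n = 4). Tps1 and Tret1-1 sit higher on high sugar, Sodh-1, Sodh-2 and sut1 sit lower on high sugar, and the 4 groups of Glut1 overlap between 35.6 and 44.1 CPM.

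In the BDGP6 annotation sut1 (2R:8082976-8087151) and sut2 (2R:8087396-8089297) lie 245 bases apart on the plus strand. Sodh-2 (3R:10876384-10878257) lies 475.6 kb from cwo on the same chromosome arm, and Sodh-1 (3R:7052335-7054541) lies 3334 kb from it. The labels do not say whether the lines share the chromosome around cwo. The antisense RNA CR45195 overlaps 56.8% of the exon bases of Sodh-2, Rbpn-5 overlaps 12.8% of those of Treh and slv overlaps 7.59% of those of sut1, each on the opposite strand. The kit marks strand, but the labels do not say whether the counting used it, so reads of these pairs may not be separated. Sodh-1 and Sodh-2 are closely related copies, as are the sut genes, and their values are uncertain where the counting split or dropped shared reads.

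Within 8 h of high sugar the gene of trehalose synthesis rose in both genotypes, while trehalase moved little. Tps1 (FBgn0027560, 2L:4388327-4392778) had 367, 373, 399 and 436 CPM in the 4 mutant libraries on high sugar, against 236, 269, 267 and 288 CPM in mutant on low sugar. In control it had 322, 321, 337 and 374 CPM on high sugar, against 183, 171, 198 and 194 CPM on low sugar. The lowest library on high sugar lay above the highest on low sugar in each genotype. The rise was 1.49-fold in mutant (log2 difference 0.57 ± 0.073, adjusted p = 1.05e-05, limma, two-sided, adjusted over all 9837 genes) and 1.81-fold in control (0.86 ± 0.073, adjusted p = 6.02e-08). Treh (FBgn0003748, 2R:21074018-21088945) had 241, 235, 209 and 217 CPM in mutant on high sugar, against 217, 199, 200.1 and 198 CPM in mutant on low sugar, and the groups overlapped. Its control values were 155, 168, 147 and 168 CPM on high sugar, against 179, 159, 169 and 171 CPM on low sugar, again overlapping. Treh passed in mutant by a small margin (0.15 ± 0.057, adjusted p = 0.044) and did not pass in control (-0.090 ± 0.057, adjusted p = 0.178). The call in mutant was lost without any 1 of 8 libraries: control low-sugar 3 or 4, control high-sugar 1, mutant low-sugar 2, 3 or 4, or mutant high-sugar 1 or 2 (log2 differences 0.11 to 0.15, limma adjusted p = 0.0523 to 0.138). It was also lost with each library scaled to a sum of 1000000 (0.11, adjusted p = 0.0938), a scaling under which Treh fell in control (-0.18, adjusted p = 0.00626), and when only the 8 mutant libraries were fitted (adjusted p = 0.0743).

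The polyol pathway genes moved in opposite directions: the aldose reductase rose a little and both sorbitol dehydrogenases fell. CG6084 (FBgn0086254, named Akr1B in the annotation, 3L:11620535-11624381) had 850.3, 938, 788 and 835 CPM in mutant on high sugar, against 831, 711, 616 and 682 CPM in mutant on low sugar, with overlap through mutant low-sugar library 1. In control the values were 983, 949.9, 921 and 875 CPM on high sugar, against 723, 814, 750.1 and 708 CPM on low sugar, without overlap. The differences of 0.27 ± 0.079, adjusted p = 0.0095 in mutant and 0.32 ± 0.079, adjusted p = 0.00226 in control passed, but neither did after quantile normalization (0.15, adjusted p = 0.126 in mutant and 0.13, adjusted p = 0.156 in control). Sodh-1 (FBgn0024289) had 110.4, 99.8, 105 and 118 CPM in mutant on high sugar, against 183, 160.0, 201 and 202 CPM in mutant on low sugar. In control it had 96.2, 95.2, 96.6 and 92.5 CPM on high sugar, against 181, 207, 174 and 184 CPM on low sugar. Sodh-1 fell in both genotypes, without overlap between diets (-0.78 ± 0.073, adjusted p = 5.43e-07 in mutant and -0.96 ± 0.073, adjusted p = 1.96e-08 in control). For Sodh-2 (FBgn0022359) the values were 45.9, 42.8, 46.9 and 42.9 CPM in mutant on high sugar, against 96.0, 103, 129 and 113 CPM in mutant on low sugar. The control libraries held 51.2, 55.2, 55.7 and 59.6 CPM on high sugar, against 87.5, 86.8, 88.2 and 83.7 CPM on low sugar. Sodh-2 fell to 0.41 of its low-sugar level in mutant (-1.29 ± 0.073, adjusted p = 2.34e-09) and to 0.64 of it in control (-0.64 ± 0.073, adjusted p = 1.61e-06).

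Of the transporters, Tret1-1 rose, sut1 fell and Glut1 did not pass in either genotype. Tret1-1 (FBgn0050035, 2R:11665768-11674782), a trehalose transporter known from the glia at the surface of the nervous system, had 342, 355, 369.9 and 339.8 CPM in mutant on high sugar, against 187, 236, 247 and 258 CPM in mutant on low sugar. In control it had 232, 258, 259.9 and 289.6 CPM on high sugar, against 151, 135, 144 and 155 CPM on low sugar. The groups did not overlap in either genotype, and the rise was 1.52-fold in mutant (0.61 ± 0.088, adjusted p = 3.56e-05) and 1.77-fold in control (0.82 ± 0.088, adjusted p = 7.83e-07). The libraries of sut1 (FBgn0028563), an SLC2-like sugar transporter, held 81.0, 77.0, 82.6 and 82.1 CPM in mutant on high sugar, against 187, 165, 221 and 191 CPM in mutant on low sugar. In control they held 51.9, 59.0, 60.2 and 53.5 CPM on high sugar, against 124, 156, 127 and 127 CPM on low sugar. sut1 showed the largest fall of the 9 genes in control and fell by nearly the same factor in both genotypes, to 0.43 of the low-sugar level in mutant (-1.23 ± 0.086, adjusted p = 2.19e-08) and 0.42 in control (-1.24 ± 0.086, adjusted p = 7.87e-09). Its neighbour sut2 (FBgn0028562), of the same family, was scarce, with 2.92, 2.89, 3.06 and 2.78 CPM in mutant on high sugar, against 2.63, 2.33, 2.60 and 2.09 CPM in mutant on low sugar. It had 3.30, 4.74, 3.23 and 4.001 CPM in control on high sugar, against 2.89, 3.15, 2.43 and 2.96 CPM in control on low sugar. It went the other way from sut1: it rose in control (0.35 ± 0.11, adjusted p = 0.00806) and did not pass in mutant (0.23 ± 0.11, adjusted p = 0.0784). There it passed without control high-sugar library 2 (0.23, limma adjusted p = 0.0408) and when only the 8 mutant libraries were fitted (adjusted p = 0.0488). After quantile normalization the control call was lost (0.26, adjusted p = 0.0681).

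Glut1 (FBgn0264574, 3L:914074-993788), the fly relative of the mammalian glucose transporter GLUT1, had 35.6, 36.8, 41.2 and 39.6 CPM in mutant on high sugar, against 36.1, 40.4, 40.8 and 41.1 CPM in mutant on low sugar. Its control values were 38.8, 39.4, 44.0 and 38.4 CPM on high sugar, against 38.0, 41.0, 40.7 and 44.1 CPM on low sugar. All 4 groups overlapped. The 95% interval of the diet difference ran from -0.18 to 0.086 on the log2 scale in mutant and from -0.16 to 0.11 in control.

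Of the 9 genes, 4 were higher and 3 lower in mutant on high sugar, where limma called 22.5% of all tested genes higher and 29.5% lower. In control 4 were likewise higher and 3 lower, against 33.1% and 34.8% of all tested genes. High- and low-sugar libraries did not overlap for 6 of the 9 genes in mutant, where 45.2% of all tested genes did not overlap, and for 7 of the 9 in control, against 64.2%. The median log2 difference of the 9 genes was 0.15 in mutant and -0.029 in control, beside medians of -0.0085 and 0.00012 over all genes tested. Markers of several cell types moved with diet too. The summed level of the 5 tubule markers was 148 to 177 CPM in mutant on high sugar, against 293 to 333 CPM in mutant on low sugar. In control it was 141 to 170.3 CPM on high sugar, against 316 to 332 CPM on low sugar. All 5 fell in mutant and 4 of 5 in control, as sut1, Sodh-1 and Sodh-2 did. The largest fall was that of Uro, from a mean of 63.8 to 0.356 CPM in mutant and from 81.4 to 2.13 CPM in control. The 6 glia markers summed to 666 to 689.99 CPM in mutant on high sugar, against 383 to 452 CPM in mutant on low sugar. In control they summed to 629.9 to 709 CPM on high sugar, against 407 to 480.2 CPM on low sugar. Of these 6, 5 rose in mutant and 6 in control, as Tret1-1 did, while Glut1 did not pass. The highest of the 6 was Gs2, which averaged 452 CPM in mutant on high sugar and 263 CPM in mutant on low sugar. In control Gs2 averaged 416 CPM on high sugar and 304 CPM on low sugar. The fat body markers Desat1 and Lsd-1, both genes of lipid metabolism, summed to 3081 to 3662 CPM in mutant on high sugar, against 938 to 1173 CPM in mutant on low sugar. In control they summed to 3154 to 3609 CPM on high sugar, against 932 to 983 CPM on low sugar, and both rose in each genotype, as Tps1 did. The 6 neuron markers summed to 278 to 318 CPM in mutant on high sugar, against 233 to 292 CPM in mutant on low sugar, and 4 of 6 rose. In control they summed to 283 to 319 CPM on high sugar, against 204 to 237 CPM on low sugar, and 5 of 6 rose. Of the 7 midgut markers, whose sums are given with the genotype comparison, 3 rose and 2 fell in mutant and 4 rose and 1 fell in control. The 6 hemocyte markers summed to 215 to 298 CPM in mutant on high sugar, against 176 to 223 CPM in mutant on low sugar, and 4 rose. In control they summed to 229 to 290.2 CPM on high sugar, against 219 to 256 CPM on low sugar, and 3 rose. The part of all these markers in the results was not tested, and in whole larvae fewer cells of a type cannot be told apart from less RNA per cell. Whole larvae also do not show which cells express the 9 genes.

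**Figure D2:**
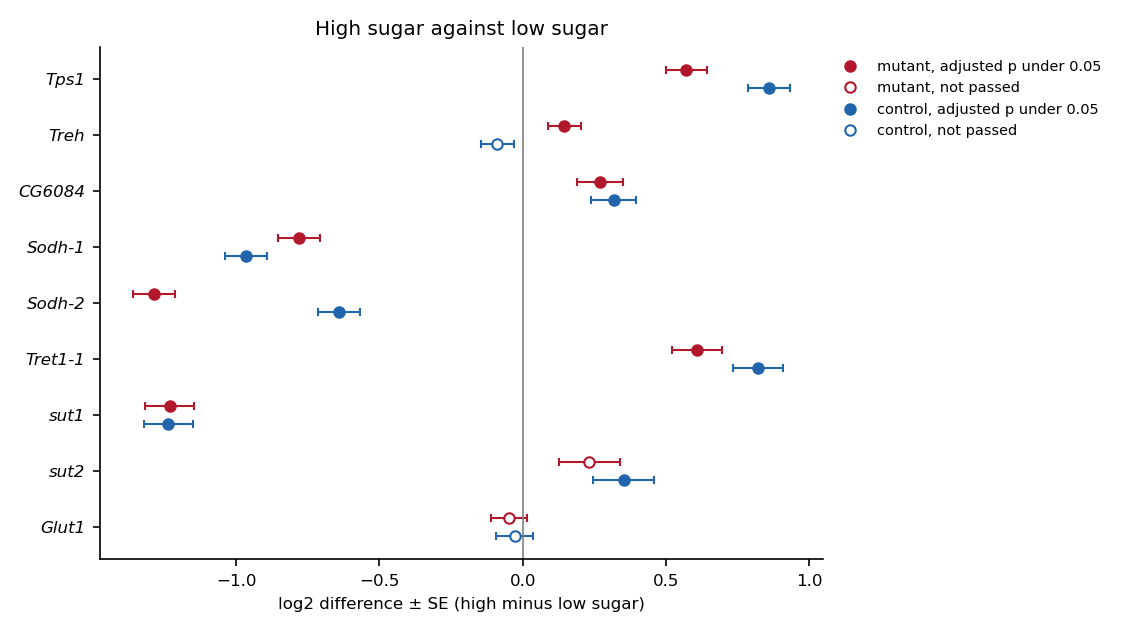
Log2 difference between high and low sugar (horizontal axis, high minus low, ± SE from limma) of the 9 genes in mutant and in control; filled points passed at an adjusted p under 0.05 and open points did not. Tps1, CG6084 and Tret1-1 lie right of 0 and Sodh-1, Sodh-2 and sut1 left of 0 in both genotypes, with Sodh-2 at -1.29 in mutant and -0.64 in control.

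Between genotypes, Tps1, Treh, Tret1-1 and sut1 were higher in larvae labelled mutant on both diets. On high sugar Tps1 averaged 394 ± 31.5 CPM in mutant and 339 ± 24.6 CPM in control (SD, n = 4 each), and on low sugar 265 ± 21.5 CPM in mutant and 186 ± 12.1 CPM in control. The low-sugar difference was 0.50 ± 0.073, adjusted p = 4.96e-05 with no overlap between the groups. The high-sugar difference was smaller (0.22 ± 0.073, adjusted p = 0.0265) and the groups overlapped. It did not pass without control high-sugar library 1, 2 or 3 or mutant high-sugar library 3 or 4 (0.17 to 0.22, limma adjusted p = 0.0518 to 0.0919), or after quantile normalization (0.17, adjusted p = 0.103). Treh averaged 225 ± 14.9 CPM in mutant and 159.5 ± 10.2 CPM in control on high sugar, and 204 ± 8.91 CPM in mutant and 169.7 ± 8.24 CPM in control on low sugar. Every mutant library lay above every control library on the same diet, and the differences were 0.50 ± 0.057, adjusted p = 5.89e-06 on high sugar and 0.26 ± 0.057, adjusted p = 0.00174 on low sugar. Both the gene that makes trehalose and the gene that splits it were thus higher under the mutant label.

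Among transporters, Tret1-1 averaged 352 ± 13.99 CPM in mutant and 259.9 ± 23.6 CPM in control on high sugar (0.44 ± 0.088, adjusted p = 0.000909). On low sugar it averaged 232 ± 31.4 CPM in mutant and 147 ± 8.65 CPM in control (0.65 ± 0.088, adjusted p = 2.61e-05). For sut1 the means were 80.7 ± 2.55 CPM in mutant and 56.1 ± 4.06 CPM in control on high sugar (0.52 ± 0.086, adjusted p = 0.000179). On low sugar they were 191 ± 23.3 CPM in mutant and 133 ± 15.1 CPM in control (0.52 ± 0.086, adjusted p = 0.000193). The groups of either gene did not overlap on either diet. The scarce sut2 was lower in mutant on high sugar (-0.33 ± 0.11, adjusted p = 0.0223) and did not pass on low sugar (-0.21 ± 0.11, adjusted p = 0.127). Its high-sugar call was lost without control high-sugar library 2 (-0.23, limma adjusted p = 0.0785) or 4 (-0.30, adjusted p = 0.0571) and without mutant high-sugar library 4 (-0.31, adjusted p = 0.0546). It was also lost without the 4 libraries of highest Tweedle level (-0.32, adjusted p = 0.0751) and after quantile normalization (-0.29, adjusted p = 0.072). Glut1 passed on neither diet, with 95% intervals of the log2 difference from -0.20 to 0.067 on high sugar and from -0.18 to 0.086 on low sugar.

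In the polyol pathway, Sodh-2 was lower in mutant on high sugar and higher in mutant on low sugar. On high sugar it averaged 44.6 ± 2.104 CPM in mutant and 55.4 ± 3.41 CPM in control (-0.31 ± 0.073, adjusted p = 0.00332). On low sugar it averaged 110.2 ± 14.2 CPM in mutant and 86.5 ± 1.95 CPM in control (0.34 ± 0.073, adjusted p = 0.00162). The libraries of the genotypes did not overlap on either diet. Sodh-1 did not pass on high sugar (0.18 ± 0.073, adjusted p = 0.0621) or on low sugar (-0.0020 ± 0.073, adjusted p = 0.987). On high sugar all 4 mutant libraries of Sodh-1 lay above the control ones. The difference passed when only these 8 libraries were fitted (adjusted p = 0.0208) and with median-ratio scaling (0.19, adjusted p = 0.0486). It also passed without mutant low-sugar library 2 (0.18, adjusted p = 0.0269) or mutant high-sugar library 2 (0.22, adjusted p = 0.0413). CG6084 passed on neither diet, at -0.13 ± 0.079, adjusted p = 0.208 on high sugar and -0.083 ± 0.079, adjusted p = 0.413 on low sugar.

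On high sugar 4 of the 9 genes were thus higher and 2 lower in mutant, where limma called 21.1% of all tested genes higher and 18.9% lower, and the median of the 9 was 0.18 against 0.0025 over all genes. On low sugar 5 were higher and 0 lower, against 23.1% and 20.8% of all tested genes, with a median of 0.26 against 0.00029 over all genes. Of the 4 that were not called on low sugar, none had an unadjusted p under 0.05, the lowest being that of sut2 (0.0697). Libraries of the genotypes did not overlap for 6 of the 9 genes on high sugar, where 40.1% of all tested genes did not overlap, and for 5 of the 9 on low sugar, against 37.3%. Several midgut markers differed between genotypes as well. On high sugar the 7 markers summed to 4340.2 to 5394 CPM in mutant and 3586 to 4650.5 CPM in control, ranges that overlap. On low sugar they summed to 3008 to 4380.0 CPM in mutant and 2275 to 2525 CPM in control. Of these 7, 4 were called higher in mutant on high sugar and 5 on low sugar, and 0 were called lower. On high sugar betaTry alone averaged 1370 CPM in mutant and 393 CPM in control. Jon65Aiv (2295 CPM in mutant and 2644 CPM in control), Mal-A1 (750 and 825 CPM) and Mal-A2 (42.2 and 47.9 CPM) had lower means in mutant without passing. Markers of other cell types differed as well. On low sugar 4 of 6 neuron markers were higher in mutant and 0 lower. Of 6 hemocyte markers 3 were lower there and 0 higher. Glia and tubule markers each had 2 higher and 1 lower on that diet, and fat body markers 1 higher and 1 lower. On high sugar 1 neuron marker was higher, and 1 hemocyte, 1 glia and 2 tubule markers were lower. The part of all these markers in the differences of Tps1, Treh, Tret1-1 and sut1 was not tested.

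**Figure D3:**
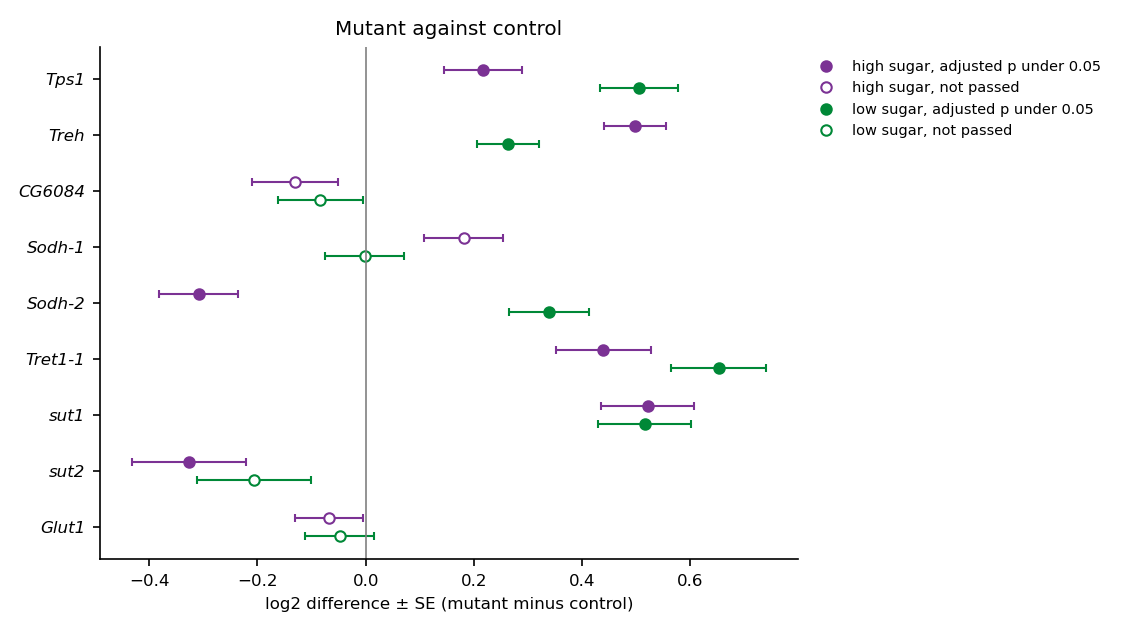
Log2 difference between mutant and control (horizontal axis, mutant minus control, ± SE from limma) of the 9 genes on high and on low sugar; filled points passed at an adjusted p under 0.05 and open points did not. Treh, Tret1-1 and sut1 lie right of 0 on both diets, and Sodh-2 lies at -0.31 on high sugar and 0.34 on low sugar.

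The interaction of genotype and diet asks whether the sugar response differed between genotypes. Of the 9 genes Sodh-2 alone passed: its fall was larger in mutant than in control (mutant minus control response on the log2 scale -0.65 ± 0.10, adjusted p = 0.000968). Limma called 7.92% of all tested genes higher and 8.95% lower in this comparison, so 1 of 9 is near the share of all genes. The interaction was -0.29 ± 0.10, adjusted p = 0.0681 for Tps1 and 0.24 ± 0.081, adjusted p = 0.0594 for Treh, and neither passed. Tps1 passed without mutant low-sugar library 1 (-0.34, limma adjusted p = 0.0186) or mutant high-sugar library 4 (-0.34, adjusted p = 0.0358), and with the Tweedle level as a covariate (-0.29, adjusted p = 0.0395). Treh passed without mutant low-sugar library 1 (0.27, adjusted p = 0.0265), mutant high-sugar library 3 (0.27, adjusted p = 0.0388) or control high-sugar library 2 (0.26, adjusted p = 0.0492). It also passed after quantile normalization (0.235, adjusted p = 0.0375) and with sums set to 1000000 (0.28, adjusted p = 0.0137). Tps1 and Treh both passed with the replicate block too, with the values given in the closing section on processing. Tret1-1 (-0.21 ± 0.12, adjusted p = 0.262) also passed without mutant low-sugar library 1 (-0.31, adjusted p = 0.0216). That library was the lowest of its group for Tps1, Tret1-1, Sodh-2 and Glut1 and the highest for Treh, CG6084 and sut2.

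For the other genes the interaction did not pass, and its interval bounds how far the responses could differ. The 95% interval for sut1 ran from -0.25 to 0.26, for Glut1 from -0.21 to 0.17, for CG6084 from -0.28 to 0.19 and for sut2 from -0.44 to 0.20 on the log2 scale. Sodh-1, the close relative of Sodh-2, had an interaction of 0.18 ± 0.10, adjusted p = 0.249 in the other direction from Sodh-2. The authors' deposited table holds no interaction. In its 4 comparisons, 7 of the 9 genes had an adjusted p under 0.05 for diet in mutant and 7 for diet in control. For genotype they numbered 6 on high sugar and 5 on low sugar. These counts come from the same libraries, and the share of all genes in those columns was not counted. In the fit given here, limma called 22.5% of all tested genes higher and 29.5% lower for diet in mutant. For diet in control it called 33.1% and 34.8%. For genotype it called 21.1% and 18.9% on high sugar and 23.1% and 20.8% on low sugar.

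Ratios of 2 genes within a library do not depend on how the library was scaled, and they are given as descriptions. The ratio of Tps1 to Treh was 1.76 ± 0.238 in mutant on high sugar and 1.31 ± 0.155 in mutant on low sugar, against 2.13 ± 0.168 in control on high sugar and 1.10 ± 0.066 in control on low sugar (mean ± SD, n = 4). High sugar thus went with more synthase per trehalase transcript in both genotypes, without overlap between the diets. CG6084 over the sum of both sorbitol dehydrogenases was 5.60 ± 0.655 in mutant on high sugar and 2.43 ± 0.505 in mutant on low sugar, against 6.20 ± 0.391 in control on high sugar and 2.74 ± 0.094 in control on low sugar. The diets did not overlap in that ratio in either genotype. Sodh-1 over Sodh-2 was 2.43 ± 0.222 in mutant on high sugar and 1.70 ± 0.173 in mutant on low sugar, against 1.72 ± 0.133 in control on high sugar and 2.16 ± 0.174 in control on low sugar. It was thus higher on high sugar in mutant and lower on high sugar in control. The ratio of sut1 to Tret1-1 was 0.230 ± 0.0117 in mutant on high sugar and 0.834 ± 0.141 in mutant on low sugar, against 0.217 ± 0.0219 in control on high sugar and 0.917 ± 0.159 in control on low sugar.

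**Figure D4:**
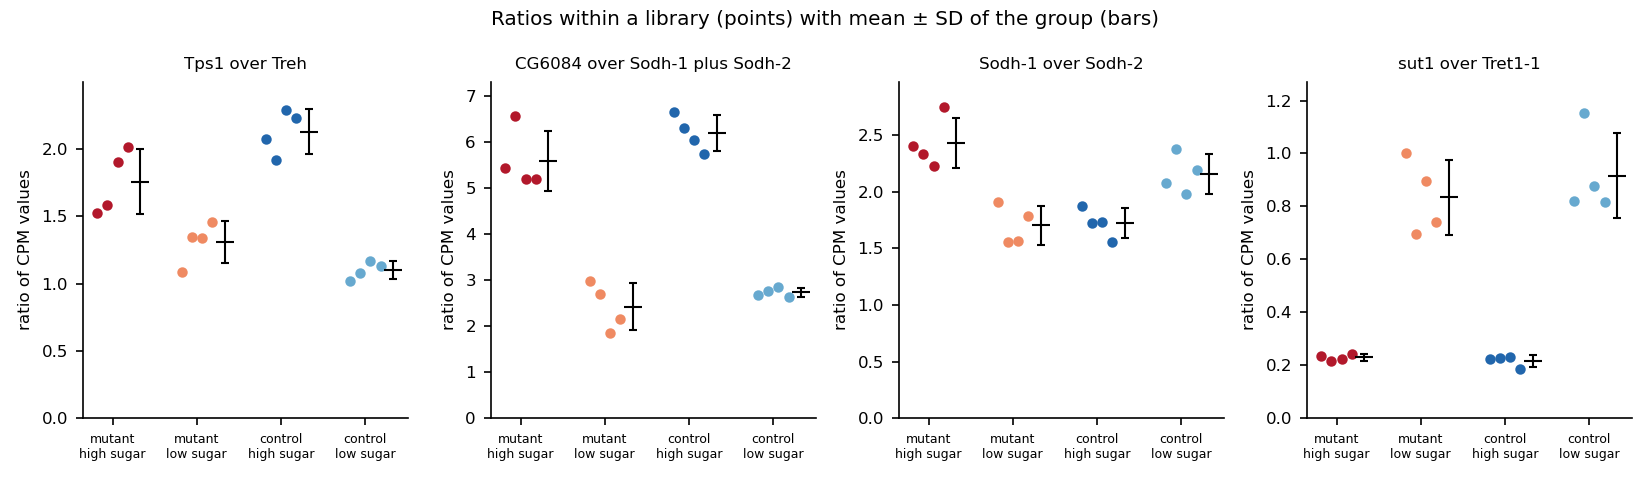
Ratios of CPM values within each library (vertical axes, from 0) by group; points are libraries and bars are the group mean ± SD (n = 4). The ratio of Sodh-1 to Sodh-2 is higher on high than on low sugar in mutant and lower on high than on low sugar in control.

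Further genes of these pathways and gene families were taken from lists that were fixed by name, with earlier results of these data known. In trehalose metabolism CG5171 and CG5177, annotated as trehalose phosphatases, were tested beside Tps1 and Treh. The list held 5 names, and CG6262 had no row. Of the 4 tested, 3 rose and 0 fell in mutant, beside 22.5% and 29.5% of all tested genes. In control 3 also rose and 0 fell, beside 33.1% and 34.8% of all tested genes. CG5171 rose on high sugar in mutant, with 54.6, 57.6, 51.1 and 57.1 CPM against 22.7, 20.6, 23.1 and 20.3 CPM on low sugar (1.33 ± 0.083, adjusted p = 6.41e-09). It also rose in control, with 71.6, 65.7, 81.5 and 91.7 CPM against 26.0, 27.9, 27.9 and 26.8 CPM on low sugar (1.49 ± 0.083, adjusted p = 8.36e-10). CG5177 averaged 580.1 ± 11.1 CPM in mutant on high sugar and 545 ± 24.4 CPM in mutant on low sugar, against 882 ± 10.5 CPM in control on high sugar and 635 ± 25.5 CPM in control on low sugar. It rose in control (0.47 ± 0.038, adjusted p = 3.55e-08), did not pass in mutant (0.090 ± 0.038, adjusted p = 0.06), and its response differed between genotypes (-0.38 ± 0.054, adjusted p = 0.000378). Both phosphatase genes were lower in mutant on both diets (CG5177 -0.60 ± 0.038, adjusted p = 7.61e-09 on high and -0.22 ± 0.038, adjusted p = 0.000284 on low sugar). For CG5171 the differences were -0.48 ± 0.083, adjusted p = 0.000258 on high and -0.32 ± 0.083, adjusted p = 0.00572 on low sugar, the opposite direction from Tps1 and Treh.

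The next list held 11 aldo-keto reductases and sorbitol dehydrogenases, the 3 members included. Of these 11, 5 rose, 5 fell and 1 did not pass in mutant on high sugar (median 0.17), where 22.5% of all tested genes rose and 29.5% fell. In control 5 rose, 4 fell and 2 did not pass (median 0.32), where 33.1% of all tested genes rose and 34.8% fell. The largest rise was that of CG12766, an aldo-keto reductase gene, with 112, 125, 89.5 and 99.1 CPM in mutant on high sugar, against 19.5, 19.2, 17.3 and 14.7 CPM in mutant on low sugar (2.55 ± 0.12, adjusted p = 2.22e-10). In control it had 69.4, 58.2, 56.0 and 58.9 CPM on high sugar, against 3.26, 2.46, 3.26 and 3.24 CPM on low sugar (4.11 ± 0.12, adjusted p = 4.64e-13). Of the same family, CG18547 rose by 0.78 ± 0.079, adjusted p = 1.13e-06 in mutant and 1.68 ± 0.079, adjusted p = 1.46e-10 in control. CG10863 rose by 0.36 ± 0.038, adjusted p = 1.82e-06 in mutant and 0.81 ± 0.038, adjusted p = 1.22e-10 in control. The interaction passed for 5 of the 11, each with a lower log2 difference between diets in mutant than in control. These were Sodh-2, CG12766 (-1.55 ± 0.16, adjusted p = 2.71e-05), CG18547 (-0.89 ± 0.11, adjusted p = 0.000152), CG10863 (-0.45 ± 0.053, adjusted p = 8.18e-05) and CG6083 (-0.39 ± 0.10, adjusted p = 0.0201). Sodh-2 fell further in mutant than in control, whereas CG12766, CG18547, CG10863 and CG6083 rose less in mutant. Of all tested genes 8.95% were lower in the interaction.

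Between genotypes on low sugar, 5 of the 11 were higher and 2 lower in mutant (median 0.060), against 23.1% and 20.8% of all tested genes. The higher ones were Sodh-2, CG12766 (2.35 ± 0.12, adjusted p = 3.27e-10), CG10863 (0.54 ± 0.038, adjusted p = 2.05e-08), CG6083 (0.45 ± 0.074, adjusted p = 0.000168) and CG18547 (0.29 ± 0.079, adjusted p = 0.00834). On high sugar 1 was higher and 5 lower (median -0.13), against 21.1% and 18.9% of all tested genes, with CG12766 again higher (0.80 ± 0.12, adjusted p = 5.02e-05) and CG18547 lower (-0.61 ± 0.079, adjusted p = 2.03e-05). CG9436 (-0.38 ± 0.057, adjusted p = 7.61e-05) and CG3397 (-1.24 ± 0.29, adjusted p = 0.00297), of the same family, were lower too.

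The list of SLC2-like transporters held 28 names, of which nebu and CG10960 are 1 gene, and 21 were tested, 4 of them members. In mutant 9 rose, 9 fell and 3 did not pass on high sugar (median 0.036), beside 22.5% and 29.5% of all tested genes. In control 10 rose, 7 fell and 4 did not pass (median 0.24), beside 33.1% and 34.8% of all tested genes. The median over all tested genes was -0.0085 in mutant and 0.00012 in control. Of the tested transporters, CG8837, CG33281, CG33282, CG3285 and CG15408 lie together on the plus strand (2L:3320245-3334790). There CG3285 (2L:3330928-3332876) overlaps CG15408 (2L:3332814-3334790), so reads of these 2 genes may not be fully separated. The counts by direction take each as 1 gene. CG7882 rose in both genotypes, with 79.5, 90.8, 76.3 and 81.7 CPM in mutant on high sugar, against 33.3, 27.8, 24.7 and 33.1 CPM in mutant on low sugar (1.46 ± 0.085, adjusted p = 3.15e-09). In control it had 54.5, 49.6, 54.8 and 51.8 CPM on high sugar, against 16.5, 17.2, 17.4 and 15.2 CPM on low sugar (1.64 ± 0.085, adjusted p = 4.28e-10). CG15406 had the largest fall of the list in either genotype, to 1.04, 1.17, 0.894 and 2.06 CPM in mutant on high sugar, against 10.2, 8.36, 10.6 and 10.8 CPM in mutant on low sugar (-2.58 ± 0.20, adjusted p = 5.89e-08). In control it fell to 4.33, 3.57, 7.45 and 5.49 CPM on high sugar, against 28.9, 36.6, 35.0 and 30.1 CPM on low sugar (-2.58 ± 0.20, adjusted p = 2.12e-08). CG1213 rose by 1.75 ± 0.14, adjusted p = 9.14e-08 in mutant and by 2.83 ± 0.14, adjusted p = 2.19e-10 in control. CG4797, named pippin in the annotation, rose by 0.98 ± 0.097, adjusted p = 9.49e-07 in mutant and by 1.54 ± 0.097, adjusted p = 3e-09 in control.

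Between genotypes, 13 of the 21 transporters were higher in mutant on low sugar, 3 lower and 5 did not pass (median 0.48), beside 23.1% and 20.8% of all tested genes. On high sugar 11 were higher, 5 lower and 5 did not pass (median 0.25), beside 21.1% and 18.9% of all tested genes. CG1213 was higher in mutant by 1.78 ± 0.14, adjusted p = 8.16e-08 on low sugar and by 0.70 ± 0.14, adjusted p = 0.000883 on high sugar, and CG7882 by 0.81 ± 0.085, adjusted p = 2.06e-06 and by 0.63 ± 0.085, adjusted p = 2.69e-05. The high-sugar value of CG1213 and both values of CG7882 stand outside the naming rule. They are given because both genes were named for diet. CG15406, added here after its values were seen, was lower in mutant on both diets (-1.67 ± 0.20, adjusted p = 7.79e-06 on high and -1.66 ± 0.20, adjusted p = 7.65e-06 on low sugar). On high sugar it averaged 1.29 CPM in mutant and 5.21 CPM in control, so the added 0.5 understates that difference. CG8837 was higher in mutant on both diets (0.74 ± 0.073, adjusted p = 1.3e-06 on high and 0.72 ± 0.073, adjusted p = 1.43e-06 on low sugar). CG33281 was lower on both (-0.92 ± 0.086, adjusted p = 6.09e-07 on high and -0.83 ± 0.086, adjusted p = 1.62e-06 on low sugar). CG4607 (0.82 ± 0.090, adjusted p = 3.64e-06) and CG33282 (0.75 ± 0.087, adjusted p = 6.1e-06) were higher in mutant on high sugar. Both were higher in mutant on low sugar too, by 0.72 ± 0.090, limma adjusted p = 1.24e-05 and by 0.44 ± 0.087, adjusted p = 0.0008. These low-sugar values were added after they were seen.

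The interaction passed for 5 of 21, 1 higher and 4 lower, beside 7.92% and 8.95% of all tested genes. CG3285 rose more in mutant (1.21 ± 0.073, adjusted p = 4.65e-09) than in control (0.40 ± 0.073, adjusted p = 0.000176), with an interaction of 0.81 ± 0.10, adjusted p = 0.000195, and was lower in mutant on low sugar (-0.73 ± 0.073, adjusted p = 1.36e-06). The other 4, CG1208 (-1.39 ± 0.19, adjusted p = 0.000343), CG14606 (-1.33 ± 0.16, adjusted p = 0.000111), CG1213 (-1.08 ± 0.20, adjusted p = 0.00226) and CG4797 (-0.56 ± 0.14, adjusted p = 0.0128) had lower differences in mutant. CG1208 fell in mutant (-1.84 ± 0.14, adjusted p = 3.89e-08) and in control (-0.45 ± 0.14, adjusted p = 0.00841). CG4797 was added to the interaction after its values were seen, to name all 5. CG14606 had 17.0, 18.7, 16.3 and 19.8 CPM in mutant on high sugar, against 32.4, 39.5, 44.4 and 37.7 CPM in mutant on low sugar, so it fell there (-1.07 ± 0.11, adjusted p = 1.96e-06). In control it had 24.1, 19.8, 21.7 and 24.1 CPM on high sugar, against 19.8, 14.6, 21.4 and 19.4 CPM on low sugar, and did not pass (0.26 ± 0.11, adjusted p = 0.0582).

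Outside the SLC2 family, Slc45-1, a relative of sucrose transporters, rose in mutant to 268, 267, 230.3 and 247 CPM on high sugar, against 63.3, 75.3, 106 and 78.0 CPM on low sugar (1.67 ± 0.12, adjusted p = 4.49e-08). In control it rose to 165, 187, 206 and 221 CPM, against 45.1, 44.5, 41.9 and 49.3 CPM (2.09 ± 0.12, adjusted p = 1.72e-09). The SWEET-family gene slv, whose exons overlap those of sut1 on the opposite strand, did not pass for diet in mutant (-0.032 ± 0.071, adjusted p = 0.731) or control (-0.15 ± 0.071, adjusted p = 0.0817). Slc45-1 was higher in mutant on low sugar (0.80 ± 0.12, adjusted p = 9.7e-05) and on high sugar (0.38 ± 0.12, adjusted p = 0.0228), and slv was lower (-0.30 ± 0.071, adjusted p = 0.00297 on low and -0.19 ± 0.071, adjusted p = 0.0459 on high sugar). The remaining name of this list, cupcake, had no row.

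**Figure D5:**
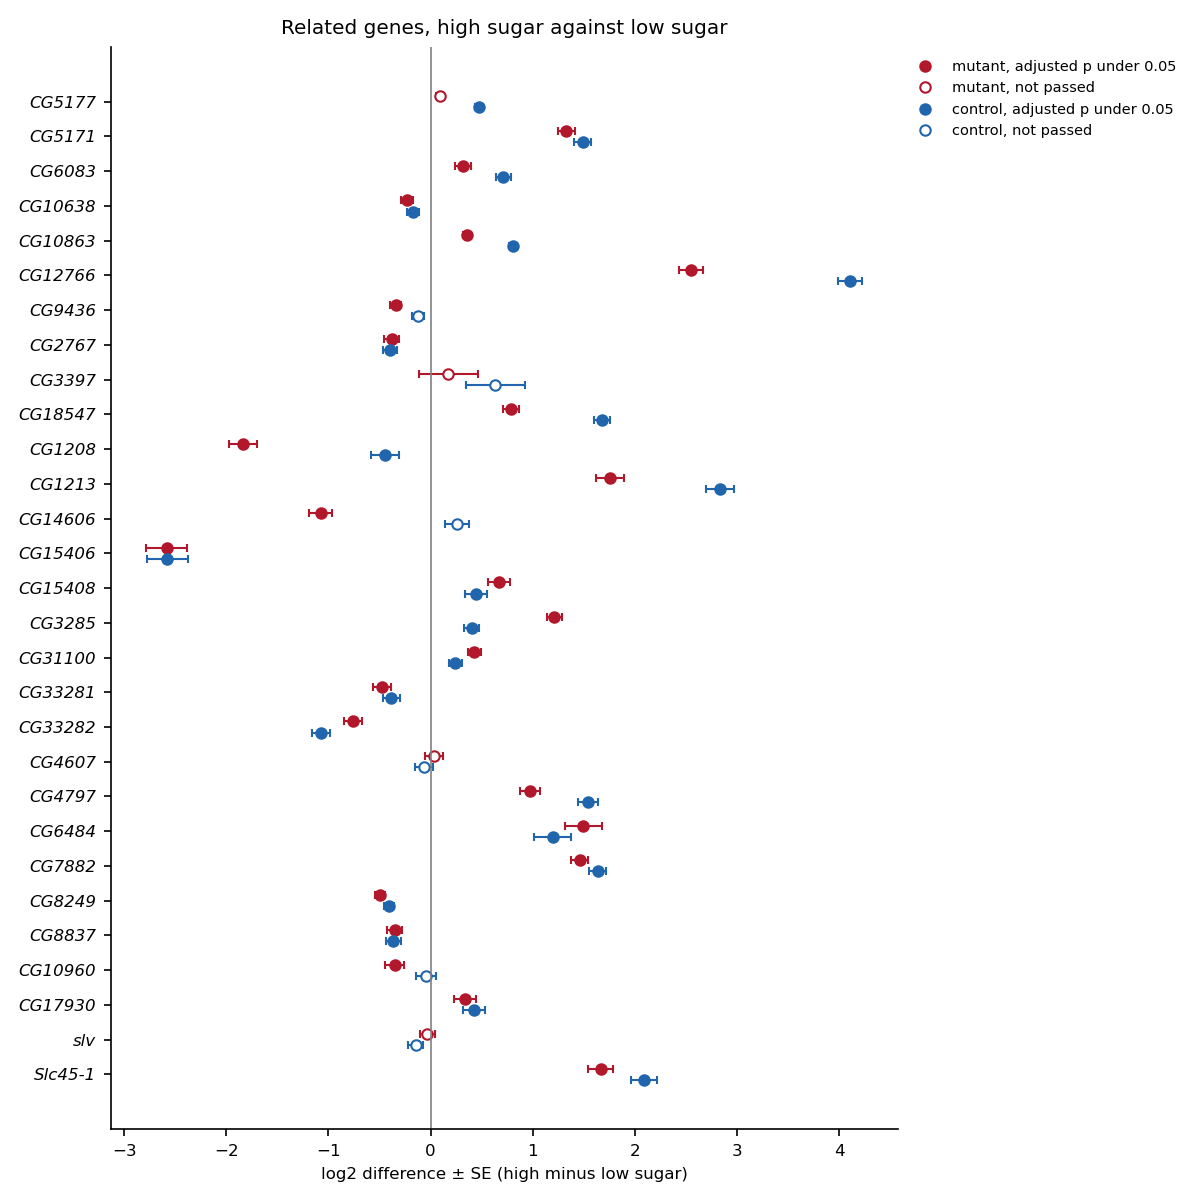
Log2 difference between high and low sugar (horizontal axis, high minus low, ± SE from limma) in mutant and in control for the related genes that are not among the 9; filled points passed at an adjusted p under 0.05 and open points did not. From top to bottom stand the trehalose phosphatases, the aldo-keto reductases, the SLC2-like transporters and the other transporters; CG12766 is the rightmost point of each genotype, at 2.55 in mutant and 4.11 in control.

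The genes whose log2 level over the 16 libraries was most like that of each of the 9 genes were looked up among all 9837 genes, with Pearson's r as a description only, since the 4 groups dominate it. Tps1 was followed most closely by Indy, a citrate transporter gene, and CG12163 (r = 0.98 each). For Treh they were CG14120 (r = 0.95) and CG10051 (r = 0.94), and for Tret1-1 CG8399 and tty (r = 0.99 each). Sodh-1 was most like CG34316 and the amylase Amy-p (r = 0.98 each), and Sodh-2 most like the glutathione transferase GstZ2 and CG31075 (r = 0.97 each). CG6084 went with the peroxiredoxin Jafrac1 (r = 0.95) and CG6475 (r = 0.94), and sut1 with sarcosine dehydrogenase Sardh and the S-adenosylmethionine synthetase Sam-S (r = 0.98 each). The scarce or flat genes had weaker partners: Lim3 (r = 0.91) and PGRP-SC1a (r = 0.87) for sut2, and Vmat (r = 0.88) and how (r = 0.81) for Glut1.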

How the data were processed

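RNA of whole larvae was sequenced in 16 libraries (stranded kit after rRNA depletion, 75 bp single-end reads, 2 technical runs, per the labels' protocols). Trimmomatic, TopHat2 2.1.0, HTSeq and limma are named in the submitters' processing notes; neither they nor the labels give the genome build, annotation or strand setting used. The authors deposited 1 table with a signal per gene and library that its name calls CPM, but 9 of its 16 columns sum to over 1000000, so they are not plain CPM; what further scaling was applied is not given, and they were used as deposited. The authors' deposited columns of log2 fold changes, of test scores (t and F) and of p-values were used only for the member counts credited to them, or not at all. The log2 average level that the authors deposited was not used.

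Reads were recovered from the step between values in each library; 100% of values were whole multiples of it within 1e-06. Voom of limma on these reads, added after seeing the data, stood in for a count test, and no negative binomial model was run. Values were tested as log2(CPM + 0.5), so fold changes of scarce genes such as sut2 and CG15406 are understated. Genes reaching 1 CPM in 4 or more libraries entered limma 3.58.1 (R 4.3.3, trended eBayes), with 1 mean for each of the 4 groups over all 16 libraries. Each of the 5 comparisons was two-sided with Benjamini-Hochberg adjustment over 9837 genes and a threshold of 0.05, and the code was tested on simulated data. Errors of log2 differences are SE. The design expected CPM, and the same test was kept for the signal. Alternatives were other pseudocounts (0.1 and 2), a filter at 5 CPM or none, median-ratio and quantile scaling, a replicate block, a Tweedle covariate, each library left out, and only the 8 libraries compared. Sums set to 1000000 and leaving out the 4 libraries of highest Tweedle level were added after seeing the data.

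The 9 members and all lists were chosen with earlier results of these data known. The text names every member, up to 4 other genes per list and comparison with the smallest adjusted p among those that passed, and 2 genes per member for likeness. Gene positions and exon lengths come from the BDGP6 annotation and were matched by gene ID. Levels per kb divide by all annotated exon bases.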

Additional observations from a re-analysis of the deposited data

Results flagged for a closer look

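In 3 of the 36 sets of 4 libraries (9 genes in 4 groups), 1 library stood far from the other 3 by Dixon's ratio at the 95% level; chance gives about 1 in 20 sets. Treh had 217 CPM in mutant low-sugar library 1, above the other 3 libraries of its group, which lay between 198 and 200.1 CPM. Glut1 had 36.1 CPM in the same library, below the other 3, which lay between 40.4 and 41.1 CPM. sut1 had 156 CPM in control low-sugar library 2, where the next highest had 127 CPM.

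The diet response of Sodh-2 differed between genotypes by the test of the difference itself (-0.65 ± 0.10 on the log2 scale, limma adjusted p = 0.000968). High sugar was lower than low sugar in both genotypes, with libraries that did not overlap, and the difference between diets was larger in mutant.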

How the results depend on the processing

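Of 1246 recomputed values of single members, 1185 kept their direction and side of the threshold, 24 were no longer past it, 18 were newly past it and 19 changed sign. After quantile normalization 2 of the 9 members were higher in control on high sugar instead of 4. The members lower in mutant on high sugar numbered 1 instead of 2 under the 5 CPM filter, which removes sut2, after quantile normalization and without the 4 libraries of highest Tweedle level. In the interaction 1 member, Treh, was higher instead of 0 after quantile normalization, with sums set to 1000000 and with the replicate block, and 2 were lower instead of 1 with the block and with the Tweedle covariate. Genes called in the interaction numbered 770 without the 4 libraries of highest Tweedle level, against 1659. The causes were not tested, apart from the filter. Voom on the recovered reads called 6675 genes for diet in control, 5102 for diet in mutant, 3911 for genotype on high sugar, 4331 on low sugar and 1593 for the interaction, and changed no member's call.

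The replicate numbers did not pair the samples throughout: 13 of 24 same-number correlations of deviations were over 0.1 (range -0.34 to 0.44). Of 48 best matches, each picked from the 4 libraries of another group, 15 had the same number. A partial pairing was not tested. With the replicate block, the interaction of Tps1 (-0.29, adjusted p = 0.00852) and of Treh (0.24, adjusted p = 0.0443) passed; it changed no other member's call.

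Leaving out each library gave 6295 to 6890 genes called for diet in control, 4603 to 5228 for diet in mutant, 3441 to 4325 for genotype on high sugar, 3801 to 4845 on low sugar and 1183 to 2447 for the interaction. Members higher numbered 3 to 5 for diet in mutant and for genotype on high sugar and 0 to 1 for the interaction; members lower numbered 1 to 2 for genotype on high sugar and 1 to 3 for the interaction. Signs changed only where the difference was near 0. Glut1 for diet in control gave 0.0034 after quantile normalization and -0.073 to 0.0066 with a library left out. Sodh-1 for genotype on low sugar ran from -0.043 to 0.070 with a library left out. In the interaction sut1 gave -0.0013 with a pseudocount of 2 and -0.072 to 0.078 with a library left out, CG6084 gave 0.019 after quantile normalization and -0.11 to 0.031, and Glut1 gave 0.026 with sums set to 1000000 and -0.063 to 0.025. No scaling moved the median of all genes by over 0.1 on the log2 scale. Replicate pairs differed by 13.9 to 127 in chi-square per degree of freedom over genes, where 1 is counting error alone. Over all genes together the spread between libraries was thus above counting error. The measure was not split by level, so it does not settle this for scarce genes such as sut2.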
